A study of Mus musculus with 272 samples.

Results

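The 30 libraries described here are the sucrose gradient fractions of mouse blastocysts, out of 272 libraries in the whole series, which spans mouse oocytes and preimplantation embryos at 8 stages. They were chosen by their labels as fractions 1 to 10 of 3 blastocyst gradients, named A, B and C. For each gradient about 100 embryos were broken open in a buffer with detergent and cycloheximide, the cleared lysate was spun through a linear sucrose gradient of 10 to 40%, and RNA from each of 10 equal fractions was made into a Smart-seq library. The comparison groups were 30 fractions of morulae and 30 fractions of germinal vesicle (GV) oocytes, treated in the same way, and 4 transcriptome libraries made from 20 whole blastocysts each were used as a reference for overall abundance. Cycloheximide was in the buffers of all gradient groups. The labels name no strain, age or genotype for any group, and embryos of a gradient were pooled, so a value describes a pool of whole blastocysts.

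Cycloheximide holds ribosomes on the mRNA they are translating, and a sucrose gradient sorts such complexes by size. Free RNA and small particles stay near the top, mRNAs with 1 or a few ribosomes move further, and mRNAs loaded with many ribosomes reach the dense end. The number of ribosomes an mRNA can carry depends on how often translation starts and on how long its coding region is, so a short coding region gives a light polysome even when it is well translated. The blastocyst is the embryo just before implantation: an outer epithelium, the trophectoderm, surrounds a fluid cavity and the inner cell mass, from which the epiblast and the primitive endoderm arise.

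3 short stretches that bear on the results are shown here first, read from GENCODE M21 transcripts of the mouse assembly GRCm38. They are copies of the iron-responsive element, an RNA hairpin that iron regulatory proteins bind when iron is scarce. In the leader (the untranslated stretch before the start codon) of an mRNA it is known to hold back translation. Capitals mark the hairpin loop, and the 5 bases on each side of the loop can pair with each other.

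Fth1 (chromosome 19): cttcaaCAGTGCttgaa
Ftl1 (chromosome 7): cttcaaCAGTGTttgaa
Slc40a1 (chromosome 1): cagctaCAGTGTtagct

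The fourth sequence is the coding region of Rpl41 (chromosome 10), one of the shortest known, which is 78 nt long in the transcript shown. The comparisons by length use the longest annotated coding region of each gene, which for Rpl41 comes from another transcript and has 141 nt. It is shown because the position of mRNAs varied with coding length, with the start and stop codons in capitals.

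Rpl41: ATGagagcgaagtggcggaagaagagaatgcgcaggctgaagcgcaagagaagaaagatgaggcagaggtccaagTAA

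Levels were read as CPM, in which each gene's reads are a share of its own library's total on a fixed scale. Each fraction was amplified and scaled on its own, so CPM show the makeup of a fraction and not how much RNA it held. Fractions 6 to 10 are called heavy and fractions 1 to 5 light; the labels give the numbers without naming the end of collection. Library depth was 2.44 to 4.39 M reads in fraction 1 and 21.1 to 43.2 M reads in fractions 2 to 10. Between 7955 and 10483 genes reached 1 CPM in a fraction, apart from fraction 9 of gradient C with 6550 such genes, and counts that rest on that library are given without it where they change. Nothing in the labels says whether the 3 gradients came from separate collections of embryos, so p-values measure the spread between these gradients, which may be technical. Beyond the genes given by a fixed naming rule, some members are named as examples, and these were chosen after their values were seen.

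Markers of the labelled stage were present. Of the trophectoderm markers 18 of 20 were in the table and tested, and all 16 inner cell mass markers were tested. Of 16 granulosa and cumulus markers 5 were in the table and none reached the level for testing; their summed level averaged 1.20 CPM on the heavy side (0.0439 to 2.66 over gradients) and 3.02 CPM on the light side (0.454 to 4.55). Fshr and Cyp19a1 had no read in any blastocyst fraction, while the highest count in a fraction was 425 reads for Vim, 379 for Inha and 42 for Star. On the list of blood and immune markers C1qb had no read and Csf1r reached 400 reads in a fraction. Of the blood and immune markers Cd74 and Hba-a1 were tested, and neither passed. The summed level of that list was 30.3 to 39.1 CPM on the heavy side and 16.6 to 32.5 CPM on the light side.

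The first comparison asked which mRNAs were richer in heavy than in light fractions of the same gradient. The difference is the mean over gradients of log2(CPM + 1) of the heavy minus that of the light side, and a gene passed when its Benjamini-Hochberg adjusted p from limma was under 0.05 and its difference at least 1 in size. Of 11130 genes tested, 2614 passed (23.5%), 1190 of them higher in heavy fractions (10.7%) and 1424 higher in light fractions (12.8%). Heavy and light counts of the classes below are to be read against these shares. In all 3 gradients 28.4% of genes were higher on the heavy side and 31.1% higher on the light side. The median difference over all genes was -0.06. Read counts tested with edgeR passed 915 genes as heavy and 707 as light. The differences of 2 gradients correlated across genes with r between 0.605 and 0.668; genes are not independent replicates.

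Most genes that passed peaked at the ends of the gradient. Of the 1190 heavy genes 528 had their highest mean CPM in fraction 10 and 359 in fraction 9. Of the 1424 light genes 845 were highest in fraction 1. Passing selects the side on which a gene peaks, so these counts are a description; of all genes tested 2458 were highest in fraction 1, 1242 in fraction 9 and 1380 in fraction 10. Fraction 1 was also the shallowest library, and its part in these calls was measured by leaving it out: with light fractions 2 to 5, 1015 genes passed as heavy and 842 as light, of which 750 were among the 1424.

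The 10 heavy genes with the largest difference were Acadvl, Gba2, Ttc5, Dnpep, Naprt, Arfgap2, Acaa1b, Pgm3, Rnh1 and Ndrg4, with differences from 3.98 down to 2.61. Acadvl, which opens the oxidation of very long fatty acids in mitochondria, averaged 39.3, 66.7 and 62.3 CPM over the heavy fractions of gradients A, B and C and 1.49, 2.39 and 4.15 CPM over the light ones. The groups did not overlap, which is no added result for a gene picked by its difference. That difference of 3.98 (SE 0.34) had an adjusted p of 2.7e-05. Dnpep, an aspartyl aminopeptidase, held 627, 758 and 590 CPM in the heavy and 73.2, 112 and 106 CPM in the light fractions, a difference of 2.77 (SE 0.17, adjusted p 3.8e-06). Arfgap2, which regulates coat formation on Golgi vesicles, had heavy values of 109, 154 and 125 CPM and light values of 20.0, 27.8 and 11.1 CPM (difference 2.74, SE 0.26). All 3 were several times richer in heavy fractions in every gradient, where the naming rule required the same sign, and highest in fraction 10. Pgm3, Acaa1b and Ndrg4 lay under 20 CPM on both sides in every gradient and did not pass with edgeR (adjusted p 0.069, 0.06 and 0.068), and Ndrg4 did not pass without gradient C (0.068). In a limma fit where all 8 stages shared 1 estimate of the spread, further genes did not pass. These were Gba2 (adjusted p 0.151), Dnpep (0.192), Naprt (0.0639), Arfgap2 (0.114), Pgm3 (0.144) and Rnh1 (0.191). Of the 1190 heavy genes 136 passed in that fit, and of the 1424 light genes 335.

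**Figure D1:**
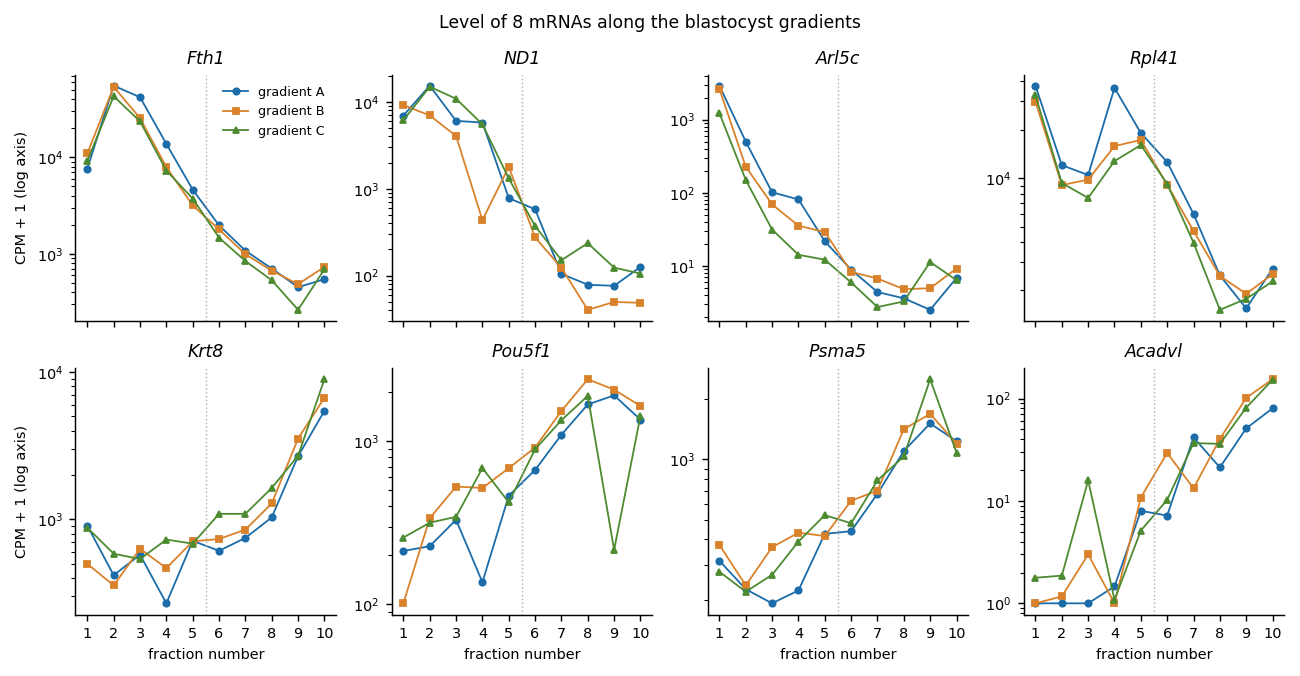
CPM + 1 (log axis) of 8 mRNAs in fractions 1 to 10 of the 3 blastocyst gradients (1 line per gradient); the dotted line separates light from heavy fractions. Fth1 and ND1 were highest in fraction 1 or 2 and Arl5c in fraction 1, Rpl41 had a second high level in fraction 4 or 5, and Krt8, Pou5f1, Psma5 and Acadvl rose toward fractions 8 to 10, with Pou5f1 low in fraction 9 of gradient C.

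The 10 light genes with the largest difference were Arl5c, ND1, Dct, COX3, Mir5128, Zfp131, Igfbp4, Xaf1, ND2 and Aldh1a3, from -6.39 to -4.56. Arl5c, a gene of the ARF-like GTPase family, averaged 4.24, 5.78 and 4.91 CPM in the heavy and 723, 596 and 285 CPM in the light fractions. Its level fell from 2914, 2623 and 1224 CPM in fraction 1 to 499, 226 and 149 CPM in fraction 2. Dct, Mir5128, Zfp131, Igfbp4, Xaf1 and Aldh1a3 also had their highest mean level in fraction 1. Their CPM-weighted mean position, which runs from 1 to 10, was between 1.36 for Xaf1 and 1.57 for Zfp131, against a median of 5.40 for all genes tested. In whole blastocysts they stood at 10.1 (Aldh1a3) to 114 CPM (Zfp131) and Arl5c at 33.0 CPM.

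The mRNAs encoded by the mitochondrial genome, which ribosomes inside mitochondria translate, were the class farthest to the light side. All 12 tested passed as light, against 12.8% of all genes, with a median difference of -4.03. ND1, a subunit of respiratory complex I, held 192, 106 and 197 CPM on the heavy side and 6971, 4482 and 7750 CPM on the light side (difference -5.28, SE 0.12, adjusted p 3.4e-09). COX3, a subunit of cytochrome oxidase, held 10.1, 4.27 and 5.64 CPM against 291, 170 and 228 CPM (difference -4.95, SE 0.23). In all 3 gradients the 12 genes were lower on the heavy side, and the class was highest in fraction 2, where its median stood 2.92 ± 0.35 (SD, n = 3 gradients) above the gene means on the log2 scale, and lowest in fraction 9 at -2.77 ± 0.26. ATP8 had the smallest difference (-1.48), at 1.92 CPM on the light side.

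RNAs without an annotated protein, which are not known to carry translating ribosomes, were mostly light. Of 17 such RNAs 12 passed as light and 0 as heavy, with a median of -1.53; 14 were lower and 0 higher on the heavy side in all 3 gradients. Bc1, a small cytoplasmic RNA, averaged 0.06, 0.09 and 0.14 CPM in the heavy and 43.9, 22.9 and 10.4 CPM in the light fractions (difference -4.40, SE 0.49). Rn7sk, which holds back the elongation factor P-TEFb, averaged 0.66, 0.76 and 1.08 CPM against 41.9, 23.0 and 38.8 CPM (difference -4.24, SE 0.40). Both were highest near fraction 1, with mean positions of 1.15 and 1.45. The long nuclear RNA Malat1 was at 8.46, 6.23 and 18.1 CPM on the heavy side and 29.0, 34.7 and 33.4 CPM on the light side (-1.61, SE 0.35), and Xist, which coats the inactive X chromosome, differed by -1.66 (SE 0.48). With fraction 1 left out, 5 of 16 passed as light and the median was -1.12; without gradient C 7 of 17 passed, and with edgeR 5.

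The spliced hosts of small nucleolar RNAs and microRNAs, which carry short open reading frames but encode no known stable protein, followed the same order. Of 16 tested 14 passed as light and 0 as heavy, with a median of -1.85. Gas5 stood at 86.9, 77.4 and 74.1 CPM on the heavy side and 645, 471 and 423 CPM on the light side (difference -2.66, SE 0.16, adjusted p 3.9e-06). Snhg18 was lower, with 5.37, 4.26 and 3.94 CPM against 27.4, 14.8 and 31.8 CPM (-2.16, SE 0.38). The class had 2 high points, 1.77 ± 0.34 in fraction 1 and 1.10 ± 0.26 in fraction 5, and fell to -1.84 ± 0.20 in fraction 9. 11 of the 16 passed as light without fraction 1.

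Ribosomal RNA of the small subunit was read as Rn18s, although the libraries were primed on poly(A), so its level is the part that escaped that selection. It averaged 5106, 3330 and 7144 CPM on the heavy side and 10992, 10595 and 18786 CPM on the light side, a difference of -1.39 (SE 0.12). This is no measure of ribosome number.

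Iron storage and transport genes held the most abundant light mRNAs. Of 10 tested 6 passed as light, among them Fth1, Ftl1, Tfrc, Slc40a1 and Epas1, and 0 as heavy, with a median of -1.66. Fth1, the heavy chain of the iron store ferritin, averaged 949, 932 and 757 CPM on the heavy side and 24749, 20331 and 17404 CPM on the light side (difference -4.56, SE 0.11, adjusted p 3.4e-09). Ftl1, the ferritin light chain and the gene with the highest mean CPM of all, averaged 3074, 2670 and 2646 CPM against 50323, 38054 and 38941 CPM (-3.91, SE 0.10). No heavy value came near a light value for either chain, though both were picked for the size of their difference. Both peaked in fraction 2, Fth1 at 55444, 54024 and 43140 CPM and Ftl1 at 107840, 91964 and 95343 CPM in gradients A, B and C. From there both fell in every gradient through fraction 8.

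Slc40a1, the iron exporter and the third gene with the hairpin printed above, was less abundant, at 3.02, 0 and 0.64 CPM on the heavy side and 10.9, 12.4 and 3.27 CPM on the light side (-2.23, SE 0.53, adjusted p 0.0095). Tfrc, the transferrin receptor, whose iron-responsive elements lie after the coding region, differed by -2.53 (SE 0.36), while the iron importer Slc11a2 stood at 129, 249 and 129 CPM on the heavy side and 45.7, 164 and 134 CPM on the light side (0.67, SE 0.26, adjusted p 0.07). The class as a whole peaked in fraction 3 (2.01 ± 0.19).

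The hairpin was searched on the transcript strand as a C, 5 bases, CAGTGN and 5 more bases that pair with the 5 before the loop, G with U allowed. It was found in annotated leaders of 28 genes, 0.134% of 20873 genes with a leader. Of 18 such genes tested 5 passed as light, against 12.8% of all genes, and 0 as heavy, with a median of -0.63. The light ones include the 3 iron genes shown, which were already picked out above, and 4930522L14Rik (-1.32). With 3 of the 5 picked beforehand, the count is no result about genes with the hairpin. Ppia (0.89) and Eif2s1 (0.35) were among the 13 that did not pass. Fth1 and Ftl1 have processed copies in the genome, one of which, Ftl1-ps1, carries the same 17 bases, so their counts may hold reads from such copies. A match is a description of the letters and no evidence that a site is used.

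**Figure D2:**
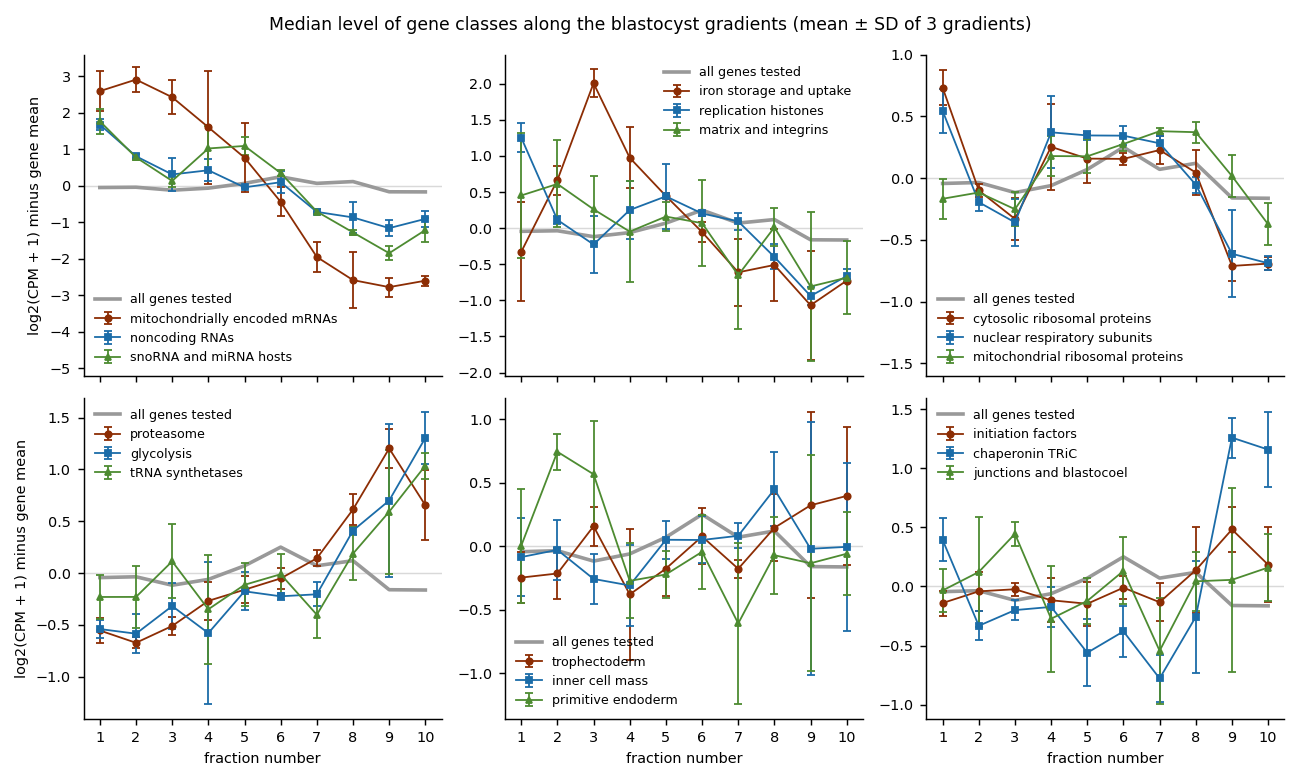
Median over the genes of a class of log2(CPM + 1) minus each gene's mean over its 10 fractions, by fraction number, as mean ± SD of the 3 gradients; the grey line is all 11130 genes tested. Mitochondrially encoded, noncoding and host RNAs fell from fraction 1 or 2 to fraction 9, iron genes peaked in fraction 3, ribosomal protein and respiratory mRNAs dropped after fraction 8, and proteasome, glycolysis and TRiC mRNAs were highest in fractions 9 and 10.

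The proteasome, the protease that degrades ubiquitin-tagged proteins, was the class with the highest median difference. Of 46 subunits and regulators 24 passed as heavy, against 10.7% of all genes, and 2 as light, with a median of 1.03; 34 were higher on the heavy side in every gradient. Psmd13, a subunit of the regulatory lid, averaged 666, 706 and 583 CPM on the heavy side and 120, 149 and 183 CPM on the light side (difference 2.12, SE 0.17). Psma5, a subunit of the core's outer ring, averaged 991, 1124 and 1177 CPM against 275, 364 and 335 CPM (1.76, SE 0.13). Light values of both lay far below every heavy value, though both were picked for the size of their difference. The 2 light members were Psmb10 (-1.49), a catalytic subunit of the immunoproteasome, and Psme4 (-1.0), an activator with a coding region of 5532 nt. The class peaked in fraction 9 at 1.20 ± 0.19. With fraction 9 of gradient C left out, 20 passed as heavy and 1 as light. With quantile normalization 15 passed as heavy and the median of 0.74 lay just under that of glycolysis (0.76).

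Glycolysis genes were also shifted to heavy fractions, with 8 of 19 passing as heavy and 2 as light and a median of 0.80. Pfkl, a subunit of phosphofructokinase, averaged 48.1, 69.7 and 58.9 CPM on the heavy side and 10.9, 22.0 and 10.6 CPM on the light side (2.01, SE 0.27). Eno1, which makes phosphoenolpyruvate, averaged 661, 681 and 991 CPM against 192, 194 and 224 CPM (1.91, SE 0.14). Ldha and Pkm, which make lactate and pyruvate, differed by 1.76 and 1.63. The light members were Ldhb, the other lactate dehydrogenase subunit, with 1.84, 3.62 and 5.28 CPM against 27.5, 21.5 and 20.6 CPM (-2.46, SE 0.41), and the hexokinase Hk2 (-1.75). The class rose to 1.30 ± 0.25 in fraction 10.

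Among 36 aminoacyl-tRNA synthetases, which charge tRNAs, 6 passed as heavy and 2 as light, against 10.7% and 12.8% of all genes. The median was 0.34. Ears2, the mitochondrial glutamyl enzyme, differed by 1.87 (SE 0.23). Lars2 differed by -1.87 (SE 0.24) but varied widely between gradients, at 3571, 311 and 485 CPM in light and 534, 129 and 159 CPM in heavy fractions. Its light level rested on single fractions, among them fraction 4 of gradient A at 13313 CPM, and against fractions 1 and 2 alone the difference was -0.22 (adjusted p 0.587). Of 8 subunits of the chaperonin TRiC, which folds actin and tubulin, 2 passed as heavy, Cct7 (2.02, SE 0.14) and Tcp1 (1.12, SE 0.21), and 0 as light. Tcp1 fell under the required size without gradient C (0.86), without fraction 9 of gradient C (0.89), with quantile normalization (0.85) and with edgeR (0.93).

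Genes of the translation apparatus were split. Of 80 cytosolic ribosomal protein genes 19 passed as light and 1, Rps9 (1.05), as heavy, with a median of -0.37. Rps2 averaged 1073, 1129 and 1092 CPM on the heavy side and 5704, 6095 and 7186 CPM on the light side (-2.52, SE 0.12), and Rps29 averaged 1078, 771 and 856 CPM against 6533, 3954 and 3705 CPM (-2.36, SE 0.13). Rpl41, the second most abundant gene, stood at 5067, 4140 and 3746 CPM against 23129, 16373 and 15690 CPM (-2.08, SE 0.10). Along the gradient it was high in fraction 1, at 37595, 29922 and 32750 CPM, low in fractions 2 and 3, and high again in fraction 4 of gradient A (36455 CPM) and fraction 5 of gradients B and C (17279 and 16071 CPM). The class median also started high, at 0.73 ± 0.14 in fraction 1, and dipped to -0.33 ± 0.17 in fraction 3. It then stayed near its mean up to fraction 8 and was lowest in fraction 9 at -0.71 ± 0.12. Ribosomal protein genes have many processed copies in the genome, so reads of single members may be shared with such copies.

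Elongation factors and other genes known to start with an oligopyrimidine tract gave 2 heavy and 2 light members of 18, near the shares over all genes (10.7% and 12.8%), with a median of -0.30. Pabpc1, the cytoplasmic poly(A)-binding protein, averaged 37.2, 21.4 and 47.5 CPM on the heavy side and 183, 110 and 198 CPM on the light side (-2.21, SE 0.19), and Eif4b differed by -1.45 (SE 0.21). The heavy members were Rack1 (1.19) and Eef1d (1.01). Of 42 initiation factor genes 8 passed as heavy and 5 as light, the light count near its share over all genes (12.8%). The median was 0.04. The helicase gene Eif4a3, whose product marks exon junctions, averaged 891, 1223 and 974 CPM on the heavy side and 220, 277 and 280 CPM on the light side (1.98, SE 0.14). Eif4enif1, which carries eIF4E into the nucleus, was at 1.57, 2.39 and 4.62 CPM against 8.83, 10.5 and 18.9 CPM (-1.84, SE 0.40), but its difference without fraction 1 was -0.87 (adjusted p 0.23). Only 1 initiation factor was light in that setting and with edgeR, and 3 without gradient B.

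Of 77 mitochondrial ribosomal protein genes 6 passed as heavy and 5 as light (median 0.21), both below the shares over all genes (10.7% and 12.8%). Mrpl42 (-2.03, SE 0.19) and Mrpl33 (-1.82, SE 0.20) were the members with the largest difference, and without fraction 9 of gradient C 3 passed as heavy. Their balance depends on the scaling: with quantile normalization 3 passed as heavy and 10 as light, with a median of 0.00346, and without gradient C 5 and 8. Of 80 nuclear genes for respiratory complex subunits 11 passed as heavy and 19 as light (median -0.21). Uqcr10, a small subunit of complex III with a coding region of 195 nt, averaged 722, 478 and 670 CPM on the heavy side and 3779, 2534 and 2256 CPM on the light side (-2.18, SE 0.15). Uqcrc2, a core subunit of the same complex with 1362 nt, went the other way, at 117, 92.2 and 119 CPM against 22.7, 39.0 and 32.2 CPM (1.79, SE 0.25). Atp5md, with -2.17 (SE 0.18), was the next lightest. Without fraction 1, 8 respiratory genes were light and 10 heavy; edgeR passed 10 each way, and quantile normalization 7 as heavy and 25 as light.

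**Figure D3:**
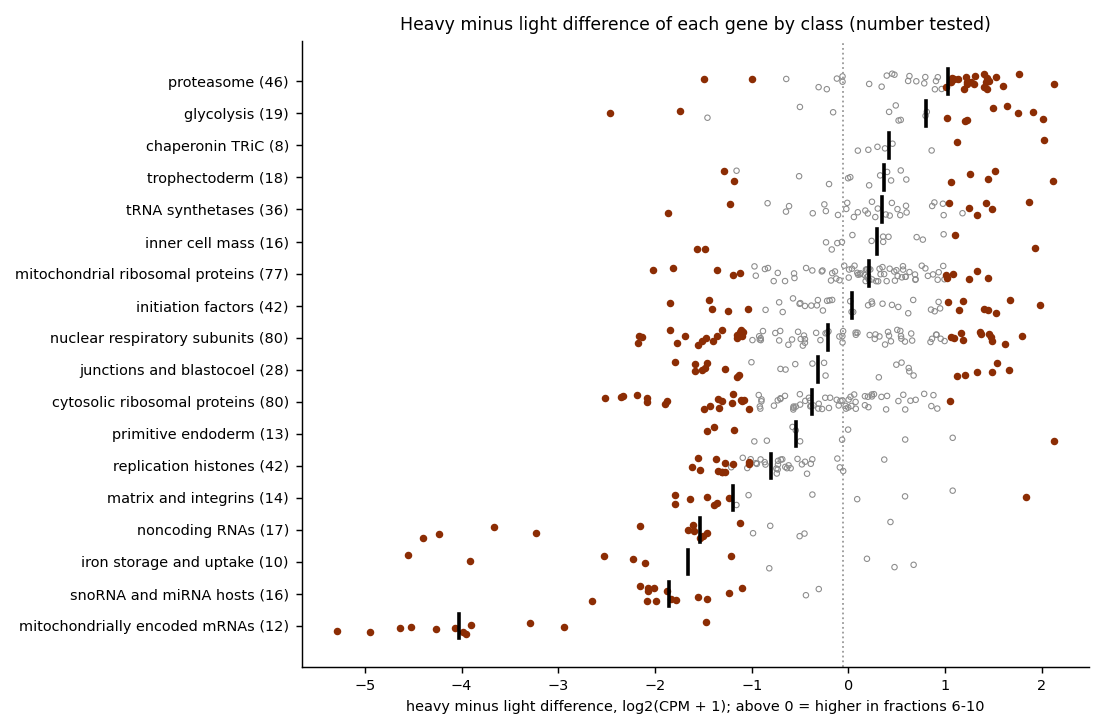
Heavy minus light difference in log2(CPM + 1) of each gene in 18 classes (number tested in brackets); filled points passed the test, open points did not, bars are class medians, and the dotted line is the median of all genes tested. Medians run from -4.03 for mitochondrially encoded mRNAs to 1.03 for the proteasome.

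Among the trophectoderm markers 5 of 18 passed as heavy, Krt8, Krt18, Krt7, Cdx2 and Tfap2c, and 2 as light, S100a6 (-1.28) and Fgfr2 (-1.19), with a median of 0.36. Krt8, a keratin of simple epithelia, averaged 2107, 2620 and 3092 CPM on the heavy side and 576, 532 and 683 CPM on the light side (2.11, SE 0.13, adjusted p 3.9e-06), and its partner keratin Krt18 averaged 2219, 2197 and 3939 CPM against 973, 799 and 1052 CPM (1.52, SE 0.14). Both were highest in fraction 10, where Krt8 reached 5455, 6691 and 8940 CPM. Cdx2, the transcription factor that specifies trophectoderm, averaged 294, 296 and 282 CPM against 72.6, 177 and 138 CPM (1.25, SE 0.23). Without gradient A, and likewise with quantile normalization, 3 trophectoderm markers passed as heavy and 1 as light.

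Of 16 inner cell mass markers 2 passed as heavy and 2 as light, near the shares over all genes (10.7% and 12.8%). The median difference was 0.30. Pou5f1, which encodes the pluripotency factor Oct4, averaged 1342, 1713 and 1156 CPM on the heavy side and 273, 433 and 404 CPM on the light side (1.93, SE 0.16) and was highest in fraction 9 of gradient A and in fraction 8 of gradients B and C; fraction 9 of gradient C held 215 CPM, against 1910 and 2073 CPM in gradients A and B. Utf1 was the other heavy member (1.10). Klf4 was at 5.88, 2.08 and 3.22 CPM on the heavy side and 6.40, 17.1 and 16.3 CPM on the light side (-1.57, SE 0.51, adjusted p 0.038), with gradient A close on both sides, and it did not pass without gradient B (0.21) or C (0.195). Sox2 passed as light (-1.48), at 1.02 CPM on the heavy side and 4.50 CPM on the light side. Nanog, at 162, 188 and 158 CPM against 61.6, 131 and 136 CPM, was under the required size (0.70). Without fraction 1, 1 marker passed as heavy and 0 as light. In pools of whole embryos fewer cells of a type and less RNA per cell cannot be told apart.

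Of 13 primitive endoderm markers 1 passed as heavy and 3 as light (median -0.54). Fgfr2 and Dab2 are on this list and on the trophectoderm list, so the light Fgfr2 is counted in both. Sox17 was heavy, at 7.05, 3.09 and 7.83 CPM against 0.34, 0.28 and 1.06 CPM (2.12, SE 0.43), and Col4a2, a basement membrane collagen, was light (-1.47, SE 0.37), though not without gradient C (adjusted p 0.084). The broader list of matrix proteins and integrins had 7 light and 1 heavy members of 14 (median -1.20). Itga6, a laminin receptor subunit, differed by -1.79 (SE 0.47) and did not pass without gradient B (0.071) or C (0.099), and Lamb2, a laminin chain, was the heavy one (1.84, SE 0.43). Without fraction 1, 4 of 15 were light; without gradient B 4 of 15, without gradient C 2 of 13 and with edgeR 3 of 15.

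Genes for junctions, water channels and the sodium pump, which build and fill the blastocoel, gave 6 heavy and 9 light members of 28 (median -0.31). Aqp3, a water and glycerol channel, averaged 186, 242 and 228 CPM on the heavy side and 46.1, 82.3 and 82.2 CPM on the light side (1.66, SE 0.18). Ctnnd1, the catenin that holds cadherin at the membrane, was at 3.06, 2.16 and 9.02 CPM against 11.1, 14.0 and 28.3 CPM (-1.79, SE 0.38). Coding length went along with the split: Aqp3 has 879 nt, while Ctnnd1 has 2904 nt and E-cadherin (Cdh1, -1.59) 2655 nt. Across the 28 genes Spearman's rho between coding length and the difference was -0.72, a description of genes read in the same libraries. The number of light members was 4 without gradient C and 5 with quantile normalization or edgeR.

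Replication-dependent histone mRNAs, most of which end in a stem-loop and not in poly(A), gave 12 light and 0 heavy members of 42 (median -0.80). H2bc4 averaged 11.1, 4.29 and 12 CPM on the heavy side and 31.5, 18.7 and 36.8 CPM on the light side (-1.62, SE 0.32), and H2bc11 differed by -1.55 (SE 0.42) but did not pass without gradient A (adjusted p 0.065) or B (0.081). The class stood highest in fraction 1 (1.25 ± 0.20), and 4 of 39 were light without that fraction. Leaving out gradient A left 5 of 42 light and gradient B 6, and edgeR passed 3 of 39. Near-identical histone genes can share reads.

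Coding length was compared over all genes by joining 10236 of the 11130 genes (92.0%) to their longest annotated coding region. The relation had a single summit. Genes of up to 300 nt had a median difference of -0.92 (-0.92, -1.03 and -0.79 in gradients A, B and C, n = 195 genes), and 42.6% of them passed as light and 0.513% as heavy. The median rose to 0.35 for 901 to 1200 nt (n = 1577), where 20.0% passed as heavy and 6.72% as light. It fell again to -0.17 for 1801 to 2700 nt (n = 1709) and to -0.69 for genes over 4500 nt (-0.69, -0.96 and -0.73 in the 3 gradients, n = 526), where 29.3% passed as light. The shape was the same in each gradient. Among genes with a mean of at least 20 CPM, a limit chosen after seeing the data, the median was -0.95 for the shortest, 0.65 for 901 to 1200 nt and -0.68 for the longest class. Median abundance fell along the classes, from 107 CPM for the shortest to 4.81 CPM for the longest, and its part in the relation was not tested beyond that limit.

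**Figure D4:**
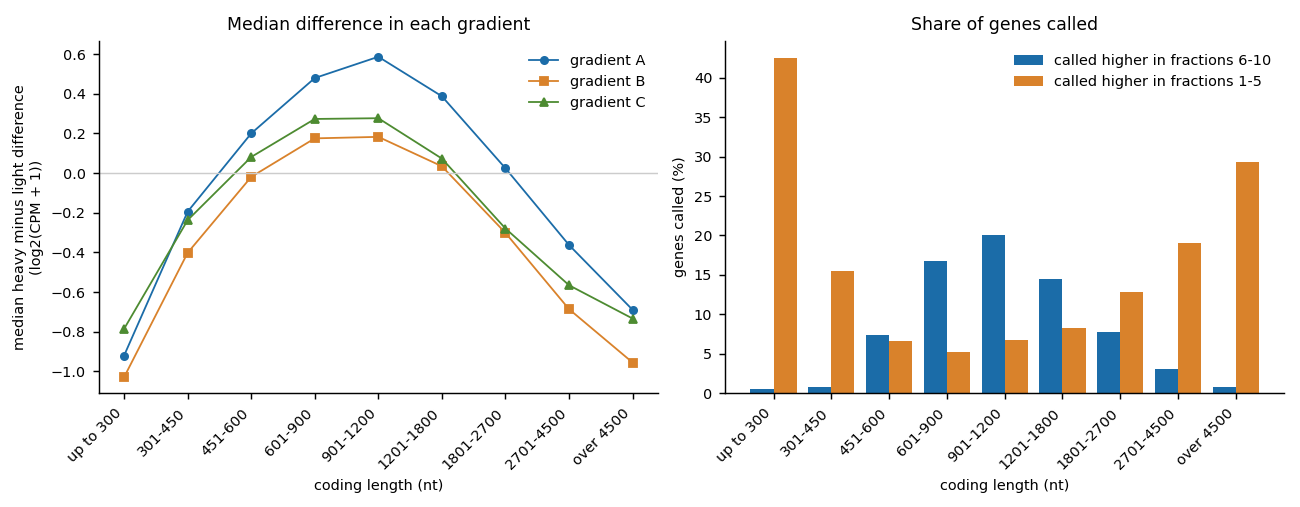
Left, median heavy minus light difference in log2(CPM + 1) of genes in 9 classes of coding length (nt), 1 line per gradient; right, percent of genes in each class that passed as higher in fractions 6 to 10 or in fractions 1 to 5. The shortest and the longest genes lay lowest in all 3 gradients, and genes of 901 to 1200 nt highest.

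Within some classes of short proteins the difference rose with coding length. Across 80 ribosomal protein genes, with coding regions from 141 to 1260 nt, Spearman's rho was 0.62, across 77 mitochondrial ribosomal protein genes 0.54 and across 75 respiratory genes 0.77. Across 46 proteasome genes rho was 0.0046 and across 36 genes of endoplasmic reticulum entry and folding 0.11. Among the 36 synthetases it was -0.52 over the 35 with a length, from 1083 nt upward. These are descriptions across genes of the same libraries. A comparison by pyrimidine runs at the transcript start was void, since 78.0% of the genes tested matched a promoter entry and at least 80% was required.

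On the light side, fractions 1 and 2 were compared with fractions 3 to 5. Of 10926 genes tested 891 passed (8.15%), 444 higher in fractions 1 and 2 (4.06%) and 447 higher in fractions 3 to 5 (4.09%). With quantile normalization 468 were higher and 273 lower, and edgeR passed 61 and 23. Fraction 2 alone against fractions 3 to 5 gave 30 and 74 genes. Arl5c led with 1707, 1425 and 686 CPM in fractions 1 and 2 and 67.1, 43.6 and 18.2 CPM in fractions 3 to 5 (4.94, SE 0.22), followed by Bc1 (4.93), Trpm2 (4.50), Ctf2 (4.50) and Lgi1 (4.49). All 5 stood higher in fractions 1 and 2 in each gradient, which the naming rule required.

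Higher in fractions 3 to 5 were Ceacam20 (-4.43), Elmod3 (-4.43), Mpzl1 (-3.66), Ggt6 (-3.44) and Tk2 (-3.43). Elmod3 stood at 3.03, 2.46 and 0.77 CPM in fractions 1 and 2 and at 50.4, 90.9 and 51.0 CPM in fractions 3 to 5 (SE 0.54). Tk2, the mitochondrial thymidine kinase, stood at 1.22, 1.69 and 3.11 CPM against 43.3, 25.0 and 25.9 CPM. Mpzl1 did not pass without gradient C (adjusted p 0.052), and Ggt6 not without gradient A (0.054) or C (0.0505). With fraction 2 alone Bc1, Trpm2, Ctf2, Mpzl1 and Ggt6 did not pass, at adjusted p 0.178, 0.129, 0.127, 0.0667 and 0.0603. Lgi1 was too low to be tested in that setting. It held 65.2, 59.4 and 43.9 CPM in fraction 1 of gradients A, B and C but 3.32, 0.63 and 0.18 CPM in fraction 2. With edgeR Lgi1 (0.194), Ceacam20 (0.0988), Mpzl1 (0.222) and Ggt6 (0.0581) did not pass, and without a filter on low values Arl5c alone of these genes did. Of the fixed classes, 8 of 80 ribosomal protein genes and 5 of 13 mitochondrially encoded mRNAs were higher in fractions 1 and 2 and 0 lower, while 0 of 17 host RNAs passed in either direction.

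On the heavy side, fractions 9 and 10 were compared with fractions 6 and 7. Of 10407 genes 2506 passed (24.1%), 1025 higher in fractions 9 and 10 (9.85%) and 1481 higher in fractions 6 and 7 (14.2%), with a median of -0.16 over all genes. The split was 989 and 935 with edgeR, and quantile normalization moved the median to 0.00. Leaving out gradient A left 1071 genes and leaving out gradient B 1476. All 8 TRiC subunits passed as higher in fractions 9 and 10 (median 1.76), Cct7 with 3340 ± 1127 CPM (SD, n = 3) there and 639 ± 98.5 CPM in fractions 6 and 7 (2.34, SE 0.19). TRiC mRNAs were thus low in fraction 7 (-0.78 ± 0.20) and high in fraction 9 (1.26 ± 0.17).

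Glycolysis genes passed as higher in fractions 9 and 10 in 10 of 18 cases and lower in 0 (median 1.18), synthetases in 16 of 36 and 0 (0.91), and the proteasome in 21 of 46 and 4 (0.93). Pkm rose from 265 ± 17.1 CPM in fractions 6 and 7 to 1298 ± 112 CPM in fractions 9 and 10 (2.28, SE 0.16). The keratin Krt8 stood at 855 ± 212 CPM and 5003 ± 882 CPM (2.56, SE 0.15). Ribosomal protein genes went the other way, with 37 of 80 lower in fractions 9 and 10 and 4 higher (median -0.99), as did respiratory genes with 40 of 80 lower and 11 higher (-1.08). Over genes of up to 300 nt the median was -1.73 and over those of 1201 to 1800 nt 0.30. Spearman's coefficient between coding length and this difference was 0.87 for ribosomal protein genes and 0.92 for respiratory genes, again as a description across genes.

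Among the single genes with the largest difference in fractions 9 and 10 were Naprt (3.56), Aldh18a1 (3.36), Accs (3.23) and Exosc9 (3.05). Higher in fractions 6 and 7 were Bpgm (-3.35), Morn4 (-3.16), Tmem167b (-3.15), Entr1 (-3.09) and Coa5 (-3.03). Coa5, an assembly factor of cytochrome oxidase, stood at 240, 232 and 271 CPM there and at 43.5, 34.3 and 16.7 CPM in fractions 9 and 10 (SE 0.32). Without gradient A, Naprt, Accs, Exosc9, Morn4 and Tmem167b did not pass, with adjusted p from 0.056 to 0.069, and with edgeR Naprt (0.0522), Accs (0.0736) and Bpgm (0.0872) did not.

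The heavy minus light differences of blastocysts were then set against those of morulae, the stage before, by testing the difference between stages with 3 gradients each. Of 12166 genes 2 passed (0.0164%), Dhx30 as higher (0.00822%) and ND1 as lower (0.00822%) in blastocysts, and 1627 had an unadjusted p under 0.05. The median over all genes was -0.16, and -0.02 with quantile normalization. Dhx30, a helicase of the mitochondrial ribosome's assembly, was light in both stages, with differences of -2.08, -1.13 and -1.62 in blastocysts and -4.67, -4.0 and -4.67 in morulae (2.83, SE 0.32, adjusted p 0.029). ND1 was light in both stages and more so in blastocysts, with -5.18, -5.39 and -5.29 against -3.70, -3.40 and -3.84 (-1.63, SE 0.17, adjusted p 0.029). Neither passed when any 1 blastocyst gradient, morula gradient B or morula gradient C was left out. A low number of calls does not show that the stages are alike.

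Against fully grown GV oocytes, which are arrested before maturation and largely silent in transcription, 2552 of 13903 genes passed (18.4%). For 937 (6.74%) the difference was higher in blastocysts and for 1615 (11.6%) lower; the median over all genes was -0.23. With quantile normalization the median was 0.05 and the split 1094 and 1088, so the excess of lower calls depends on the scaling. This comparison uses the same blastocyst libraries as the first, and the values are given side by side. A gene was tested with at least 1 CPM in 3 of the 12 side means, so 1 stage alone could bring it in. For a gene near 0 CPM in 1 stage, the difference of that stage is held near 0. Such a call repeats the difference of the other stage. All 31 oocyte transcripts were tested here, against 11 in blastocysts alone.

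Among genes shifted toward heavy fractions in blastocysts, Aldoa, the aldolase of glycolysis, averaged 2673 ± 58.5 CPM (SD, n = 3) on the heavy and 1316 ± 64.4 CPM on the light side of blastocyst gradients, and 489 ± 91.1 and 2418 ± 909 CPM in GV oocytes (3.26, SE 0.26, adjusted p 8.4e-04). Ints11, the nuclease of the Integrator complex, differed by 3.07, 2.50 and 1.98 in blastocyst gradients and -0.99, -0.97 and -0.97 in GV gradients (3.49, SE 0.32). Babam1 (3.41), Kdm8 (3.33) and Arfgap2 (3.21) completed the 5 largest. For Ints11, Babam1, Kdm8 and Aldoa every blastocyst gradient was heavy and every GV gradient light.

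Shifted toward light fractions in blastocysts were, among others, Arl5c (-5.55), Zfp131 (-5.51), Pdzd2 (-5.46) and Fat1 (-5.15). Fat1, a giant cadherin, differed by -1.84, -2.79 and -2.30 in blastocysts and by 3.99, 3.42 and 1.10 in GV oocytes. Zfp131 and Pdzd2 were likewise light in every blastocyst gradient and heavy in every GV gradient. Arl5c varied among GV gradients (0.99, 0.20 and -3.70) and did not pass without blastocyst gradient A (adjusted p 0.061) or B (0.058) or GV gradient B (0.057); Arfgap2 did not pass without blastocyst gradient A (0.055), B (0.06) or C (0.067).

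**Figure D5:**
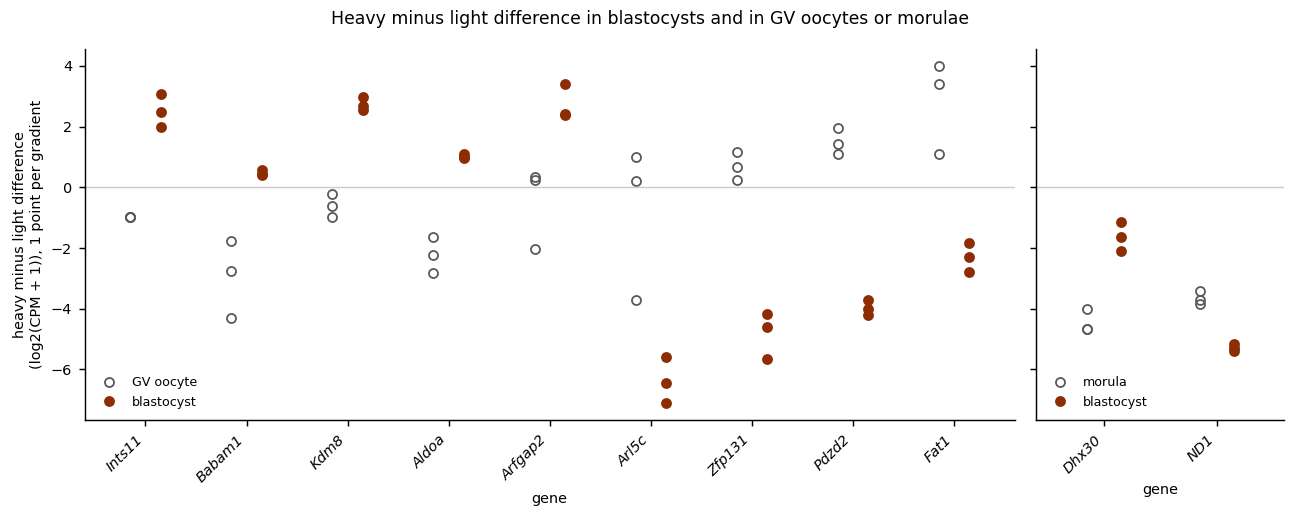
Heavy minus light difference in log2(CPM + 1) of genes with the largest differences between stages, 1 point per gradient: left, GV oocytes (open) and blastocysts (filled); right, morulae (open) and blastocysts (filled). Blastocyst points lay wholly above the GV points for the first 5 genes and wholly below them for the last 4. The naming rule required this separation, so it is no added result.

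By class, 20 of 46 proteasome genes were more heavy in blastocysts than in GV oocytes and 2 less, with a median of 0.96, and 8 of 19 glycolysis genes were more heavy and 2 less (1.24). Krt8 differed by 2.80 and Pou5f1 by 2.15 in the same direction. The host RNAs went toward light fractions, with 11 of 16 lower in blastocysts and 0 higher (median -2.15), Gas5 by -3.92. Of 13 mitochondrially encoded mRNAs 6 were lower and 0 higher (-3.02), and of 10 iron genes 5 were lower and 0 higher (-1.74), Fth1 by -3.05 (adjusted p 3.7e-05). Ribosomal protein genes were split, 11 higher and 10 lower of 80, with a median of -0.11.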

How the data were processed

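Blastocyst gradient fractions were read from the authors' table of 272 libraries, deposited as CPM. Per the submitters' processing notes, Trim Galore 0.6.7, FastQC, HISAT2 2.2.1, featureCounts 2.0.1 and edgeR were used with build GRCm39; the annotation is not given in the sources used here. 9 columns, among them the 4 blastocyst transcriptomes, sum above the CPM total, 159 symbols in 76 groups repeat with identical values, and these columns were treated as deposited signal on the same scale. In those and all fractions 100% of values were whole reads (tolerance 0.05), which gave the depth. Repeated symbols were kept once, leaving 15771.

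Means of fractions 6 to 10 and 1 to 5 per gradient were compared as log2(mean CPM + 1) in limma 3.58.1 (R 4.3.3), gradient as block, trend on, for genes with at least 1 CPM in 3 of 6 values; fold changes of low genes are understated on this scale. Stage comparisons tested the difference between stages without a block. edgeR 4.0.16 and DESeq2 1.42.0 on recovered reads, other pseudocounts, filters, scalings, fraction limits and leaving out each gradient were alternatives. The scripts were tested on simulated data. Heavy and light sides of 1 gradient deviated together (r 0.117, 0.223 and 0.103 for A, B and C), and the letter marks fractions of 1 gradient, so pairing was kept. Libraries of the same fraction differed by at least 32.6 in chi-square per degree of freedom, so none was a copy.

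Named genes were, per comparison, the 10 (main) or 5 (others) largest differences each way among genes that passed. At least 10 CPM was required on the higher side, and unnamed genes and repeated symbols were left out. Within blastocysts the sign had to be the same in all gradients. Between stages the 3 differences of blastocysts had to lie wholly above or wholly below those of the other stage. Added were, per list, the 2 largest that passed, or the 2 most abundant, and for profiles the 3 most abundant genes and Rn18s. Some genes that the rule or a list named are not reported here by name. Members and lists were chosen with earlier results of these data known. The patterns of the ribosomal protein and mitochondrially encoded lists were rewritten to the table's symbols after it was seen. Coding lengths are from GENCODE M21 (GRCm38), matched by symbol.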

Additional observations from a re-analysis of the deposited data

Results flagged for a closer look

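These results met a rule for a second look: the heavy minus light difference itself differed between stages by a test, or 1 of 4 transcriptomes stood apart. Blastocyst minus morula, the difference was 2.83 for Dhx30 and -1.63 for ND1. Blastocyst minus GV oocyte, it was 3.49 for Ints11, 3.41 for Babam1, 3.33 for Kdm8, 3.26 for Aldoa and 3.21 for Arfgap2. In the other direction it was -5.55 for Arl5c, -5.51 for Zfp131, -5.46 for Pdzd2 and -5.15 for Fat1. These genes are among the extremes of 12166 and 13903 tests. ND2 was at 804 CPM in the highest of 4 blastocyst transcriptomes, apart from the other three by Dixon's test; chance marks about 1 in 20 such groups, and 20 genes were looked at.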

How the results depend on the processing

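Counts of genes that passed heavy against light changed from 2614 to 1734 with a pseudocount of 5, 1674 without a filter on low values, 1622 with edgeR and 492 when all 8 stages shared 1 estimate of the spread. Among class examples, Krt8, Krt18, Psmd13, Psma5, Pfkl, Aqp3 and Khdc3 did not pass in that fit of 8 stages, while Pou5f1, Cct7 and Eif4a3 did. Leaving out 1 gradient gave 2101 to 2293. Fractions 1 and 2 against 3 to 5 passed 891 genes, but 2 without a filter, 84 with edgeR, 104 with fraction 2 alone and 260 to 527 without 1 gradient. Fractions 9 and 10 against 6 and 7 passed 2506, with 1636 without a filter and 1071 to 2440 without 1 gradient. The 2 genes that differed from morulae became 0 with a pseudocount of 0.1, without a filter and with a mean of logs, and 0 to 5 when 1 gradient of either stage was left out. The 2552 that differed from GV oocytes became 1143 to 2009 in that way. The causes were not tested.

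Without the replicate block the 3 paired comparisons passed 2416, 714 and 2464 genes. Lars2 (adjusted p 0.0888), Itga6 (0.0607) and Ddit4 (0.0755) passed only with it. With a replicate block on the letters the stage comparisons passed 2 (morula) and 2083 (GV oocyte). The labels do not say whether a letter links gradients of different stages. Same-letter correlations were 0.0341, 0.012 and 0.0248 for morulae and 0.0183, -0.0265 and -0.0467 for GV oocytes. Each blastocyst gradient correlated best with its own letter for morulae and none did for GV oocytes. The number of classes with 1 sign in all gradients, 22 of 29, was 20 with a pseudocount of 0.1 and 21 without ribosomal RNA; it was 23 to 26 without 1 gradient, where 1 sign is easier to reach, and a mean over gradients before the log fixes it. Over 1836 values of named genes under alternatives none reversed; 1675 kept their side of the threshold, 158 lost it and 3 (Cd74) gained it. Without fraction 9 of gradient C, chosen after seeing the data, the counts were 2659 heavy against light, 2771 for fractions 9 and 10 against 6 and 7, 3 against morulae and 2632 against GV oocytes. Depth limits fraction 1 most, and genes near 1 CPM on both sides have differences held down by the pseudocount.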

Other observations

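In the other fixed classes most genes did not pass, and the counts are to be read against the shares over all genes, 10.7% heavy and 12.8% light. Heat shock chaperones, stress-response genes with upstream reading frames, polyamine genes, lysosome genes and genes of endoplasmic reticulum entry had shares below these in both directions. Of 30 mitotic genes 5 passed as heavy and 7 as light (median -0.18); the light ones included Kif11 (-2.26) and Top2a (-2.0) and the heavy ones Kif20a (1.80) and Cdc20, the activator of the anaphase-promoting complex, at 611, 878 and 643 CPM against 246, 251 and 211 CPM (1.57, SE 0.15). Light mitotic genes numbered 4 without gradient B and 2 with edgeR. Of 24 cholesterol synthesis and uptake genes 5 were heavy and 4 light (median 0.51), led by Hsd17b7 (2.2) and Msmo1 (-1.98); Msmo1 was at -0.64 (adjusted p 0.19) without fraction 1, where 1 gene was light, as without gradient C. Splicing regulators gave 2 heavy and 5 light of 34, with Srsf7 (1.46) and Hnrnpa0 (-1.77) at the ends, and 3 heavy and 1 light without fraction 1 and 3 heavy and 0 light with edgeR. Of 36 genes of endoplasmic reticulum entry and folding 0 were heavy and 4 light, Canx (-2.05), Sec61g (-2.05), Hsp90b1 (-1.62) and Sec62 (-1.24). Of 21 heat shock chaperones 1 was heavy and 2 light, Hsph1 (-2.19) and Hspd1 (-1.46), the second at -0.50 (adjusted p 0.22) without fraction 1.

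Of 19 selenoprotein genes 3 were light and 0 heavy, Selenow (-2.0), Selenoh (-1.25) and Gpx1 (-1.07), and the class was highest in fraction 5 (0.79 ± 0.10). Stress-response genes with upstream reading frames gave 1 of 15 each way, Tma7 (-1.56) and Ddit4 (1.15), the second not without gradient B (adjusted p 0.17) or C (0.22). Atf4, the best known of them, was at 234, 233 and 170 CPM in heavy and 295, 523 and 398 CPM in light fractions (-0.90, SE 0.19), under the required size. Of 10 polyamine genes 1 was heavy, Paox (1.75), and of 25 lysosome and endocytosis genes 1, Psap (1.42). Of 31 oocyte transcripts 11 were abundant enough to test; Khdc3, of the subcortical maternal complex, was heavy at 1337, 1923 and 1621 CPM against 433, 561 and 539 CPM (1.66, SE 0.12), and Gdf9 (-1.75, not without gradient C, adjusted p 0.054) and Zbed3 (-1.19) were light; without fraction 1, 0 of 10 were light.

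The mean makeup of the gradient fractions differed from that of whole blastocysts, and coding length went along with the difference. The gradient level is a plain mean of CPM over fractions that were each amplified and scaled on their own. It is therefore not the mRNA content of a gradient. The median of mean gradient level minus transcriptome level, in log2(CPM + 1), was 0.28 for genes of 451 to 600 nt and -2.02 for genes over 4500 nt, and 73.0% of the latter were at least 2-fold lower in the gradients. Pou5f1 averaged 54.9 CPM in transcriptomes and stood 3.99 higher in the gradients on that scale, while the difference for Malat1, at 567 CPM in transcriptomes, was -4.65. Both kinds of library were made by related methods from different inputs, and the cause was not tested.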
